A study of Saccharomyces cerevisiae with 7 samples.

Results

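The 9 genes described here encode a subunit of the proteasome, enzymes that attach ubiquitin and its relatives to proteins, and one such relative, and each holds 1 annotated intron. They were chosen by systematic name: YJL001W (PRE3), YBR082C (UBC4), YDR059C (UBC5), YEL012W (UBC8), YDR092W (UBC13), YGL087C (MMS2), YDL064W (UBC9), YLR306W (UBC12) and YDR139C (RUB1). They make up 9 of the 270 genes, and 9 of the 280 annotated introns, counted in the deposited tables. Of the 174421 junctions in the pair table, each a 5' splice site joined to a branch point, 203 shared an end with one of these introns, the annotated junctions included. The rule for the 9 genes and their junctions used names and positions alone, but it was set with earlier results of these data known.

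Ubiquitin is a small protein that cells couple to other proteins through an enzyme cascade whose middle step is carried by the E2, or conjugating, enzymes. A chain of ubiquitin commonly sends its carrier to the proteasome, the protease complex that degrades it, while the ubiquitin relatives SUMO and Rub1 are attached by E2 enzymes of their own and alter what the carrier does. In budding yeast few genes have introns, and splicing of such an intron begins when the 2' hydroxyl of a branch adenosine attacks the 5' splice site, which leaves the intron as a lariat.

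Lariat sequencing reads the junction between the 5' splice site and the branch point. It was applied to Saccharomyces cerevisiae with wild-type PRP8, the gene of a protein at the centre of the spliceosome, and with 4 alleles that alter its RNaseH domain, to compare where splice sites were used. The alleles were prp8-N1869D, prp8-V1870N and the pair prp8-V1860D and prp8-V1860N. Every strain was mat a and carried dbr1::Kan, which removes the debranching enzyme so that lariats persist, prp8D::LYS2 at the chromosomal locus, and the markers his3, leu2, ura3 and lys2. The PRP8-WT or mutant allele was carried on a pRS313 plasmid, so the controls also lack the debranching enzyme and the chromosomal PRP8, and cells were grown in rich media. PRP8-WT, prp8-V1860N, prp8-V1860D and prp8-V1870N had 1 library each, and prp8-N1869D had a first sample with 1 library and a second biological sample with 2 technical libraries, which were summed and counted as 1 sample. The tables therefore hold 7 libraries, 6 samples and 5 strains. Samples held 1222720 to 3517283 lariat reads, of which 993122 to 3042633 were annotated, and the technical libraries held 713781 and 652680 lariat reads. No test between strains was made, because the wild type and 3 of the 4 mutants had no replicate, so every difference from PRP8-WT rests on 1 wild-type library. Intervals given are exact 95% intervals and cover counting error only, since reads without molecular identifiers are not independent molecules. In whole-cell RNA, fewer lariats per cell and fewer cells that make them cannot be told apart.

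The introns on which the results turn are shown in the direction of transcription, from RefSeq on build R64. Capitals mark the first 6 bases of the intron, the 7-base branch box, whose sixth base is the annotated branch point, and the last 3 bases. In UBC8 and UBC9 a further single capital marks another position at which branch junctions were read. PRE3, UBC4 and UBC9 are shown because they held most of the reads, UBC5 as the close relative of UBC4, UBC8 for its rare branch box, and UBC13 and RUB1 for the longest and shortest stretch after the branch point.

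PRE3 (chrX:435228-435343, + strand): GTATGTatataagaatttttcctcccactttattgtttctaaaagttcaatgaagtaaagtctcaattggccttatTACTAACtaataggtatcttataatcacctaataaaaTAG
UBC4 (chrII:407028-407122, - strand): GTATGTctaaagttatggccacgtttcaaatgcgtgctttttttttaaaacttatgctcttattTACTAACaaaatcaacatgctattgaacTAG
UBC5 (chrIV:569634-569723, - strand): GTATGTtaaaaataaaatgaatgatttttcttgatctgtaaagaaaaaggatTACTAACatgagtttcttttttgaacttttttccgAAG
UBC8 (chrV:131777-131899, + strand): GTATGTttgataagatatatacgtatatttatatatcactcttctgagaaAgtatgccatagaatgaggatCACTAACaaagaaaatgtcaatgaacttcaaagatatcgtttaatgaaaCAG
UBC13 (chrIV:629906-630173, + strand): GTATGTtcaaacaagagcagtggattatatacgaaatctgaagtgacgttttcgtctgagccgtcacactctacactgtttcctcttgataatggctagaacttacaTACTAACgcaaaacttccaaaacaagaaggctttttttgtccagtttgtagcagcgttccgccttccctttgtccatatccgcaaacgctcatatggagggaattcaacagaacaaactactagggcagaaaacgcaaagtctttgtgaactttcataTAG
UBC9 (chrIV:337525-337634, + strand): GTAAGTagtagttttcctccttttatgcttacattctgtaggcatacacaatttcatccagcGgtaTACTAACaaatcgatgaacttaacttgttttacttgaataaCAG
RUB1 (chrIV:733703-733775, - strand): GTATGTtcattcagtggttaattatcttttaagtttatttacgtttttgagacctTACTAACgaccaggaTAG

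All 9 introns lie between exon 1 and exon 2 of a 2-exon gene, inside the coding sequence. They run from 73 nt in RUB1 to 268 nt in UBC13, with a median of 110 nt, against a median of 139 nt over the 255 of 280 annotated introns whose end the reference gives. The 5' splice site lies 42 nt from the branch point in MMS2 and 112 nt from it in UBC13, with a median of 69 nt. That is close to the median of 64 nt over the 176 introns outside ribosomal protein genes and far from the 367.5 nt over the 104 introns of ribosomal protein genes. The hexamer GTATGT opens 7 of the 9 introns (77.8%), as it does 77.5% of all 280. UBC9 begins with GTAAGT, which 5% of all introns have, and UBC12 with GTACGT, which 8.57% have. The box TACTAAC stands in 8 of 9 introns, against 82.1% of all, and UBC8 has CACTAAC, found in 2.86% of all. From the branch point to the end of the intron, RUB1 has 12 nt, where 2.35% of introns have fewer and 96.1% have more, and UBC13 has 155 nt, exceeded in 0.392%.

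PRE3, a beta subunit of the proteasome core with peptidase activity, gave by far the most lariat reads of the 9 genes. Levels are given in RPM, annotated reads per 1000000 annotated reads of the sample, and since each intron offers 1 junction, no scaling by length was applied. PRE3 stood at 17804 RPM with PRP8-WT (54170 reads), at 30890 and 41118 with prp8-N1869D (samples 1 and 2), at 33476 with prp8-V1870N, at 28652 with prp8-V1860D and at 19230 with prp8-V1860N. Among the 280 introns its rank was 6 with PRP8-WT and with prp8-V1860N, 3 with prp8-V1860D, 4 and 3 in prp8-N1869D samples 1 and 2, and 2 with prp8-V1870N. The intron of PRE3 supplied between 70.7% and 81.2% of the 9 genes' annotated reads in each sample, so any summed value over these genes is mostly a value of PRE3.

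Over PRP8-WT, the share of PRE3 was 1.74-fold in prp8-N1869D sample 1 (1.71 to 1.76), 2.31-fold in sample 2 (2.28 to 2.34), 1.88-fold with prp8-V1870N (1.86 to 1.90), 1.61-fold with prp8-V1860D (1.59 to 1.63) and 1.08-fold with prp8-V1860N (1.07 to 1.09). These counting intervals are far narrower than the gap between biological samples, since sample 2 over sample 1 of prp8-N1869D was itself 1.33-fold (1.31 to 1.35). The technical libraries differed by less, at 0.933-fold for library 1 over library 2 (0.916 to 0.951). In prp8-V1860D the log2 share ratio of 0.69 for PRE3 was higher than that of 94.9% of the introns tested, while the median intron stood at 0.01. In prp8-V1870N it was 0.91, above 88.8% of introns, and in prp8-N1869D it was 0.80 and 1.21, above 66.5% and 74.0%. Its place among introns was thus higher in prp8-V1860D and prp8-V1870N than in either prp8-N1869D sample, although its fold was larger in sample 2 of prp8-N1869D. The introns tested include those of ribosomal protein genes. Other introns outside these genes, with a branch point within 112 nt of the 5' splice site, had medians of 1.05 and 1.29 in prp8-N1869D. Their medians were 0.64 with prp8-V1870N, 0.25 with prp8-V1860D and 0.27 with prp8-V1860N. PRE3 lay below these medians in both prp8-N1869D samples and prp8-V1860N, and above them in prp8-V1870N and prp8-V1860D. The 3 introns whose log2 ratios over the 5 mutant samples lay nearest to those of PRE3 were TAF14, IST1 and YBR062C, with root mean square differences of 0.12, 0.15 and 0.16 among 253 introns compared. TAF14, the nearest, had log2 ratios of 0.61 and 1.11 in prp8-N1869D samples 1 and 2, 0.99 with prp8-V1870N, 0.82 with prp8-V1860D and 0.14 with prp8-V1860N.

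**Figure D1:**
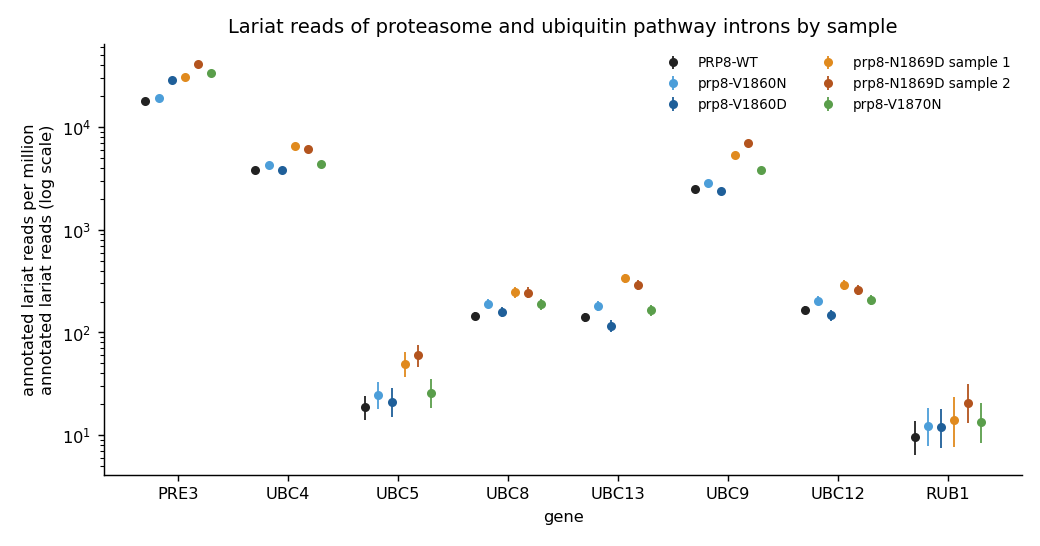
Annotated lariat reads in RPM (log axis) of 8 genes in 6 samples, with exact Poisson 95% intervals; MMS2, with 1 read in all, is not drawn. PRE3 lies between 17804 and 41118 RPM and RUB1 between 9.53 and 20.8, and the prp8-N1869D samples lie highest for UBC4, UBC5, UBC8, UBC13, UBC9 and UBC12.

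UBC4 and UBC5 encode nearly identical E2 enzymes that act in the degradation of short-lived and abnormal proteins. Translated from the reference, each has 148 residues, 92.6% of which are identical, while 77.2% of their coding bases match. Their introns share no run longer than 9 bases, so their junction reads differ in sequence. UBC4 stood at 3778 RPM with PRP8-WT (11494 reads), at 6471 and 6178 with prp8-N1869D (samples 1 and 2), at 4375 with prp8-V1870N, at 3808 with prp8-V1860D and at 4244 with prp8-V1860N. UBC5 stood at 18.7 RPM with PRP8-WT (57 reads), at 49.3 and 59.7 with prp8-N1869D (samples 1 and 2), at 25.8 with prp8-V1870N, at 21.2 with prp8-V1860D and at 24.6 with prp8-V1860N. Both were highest in the 2 samples of prp8-N1869D, which lay above the other 4 samples with no overlap of intervals.

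The UBC4 intron was thus read 202 times for each UBC5 read in PRP8-WT (156 to 266). In prp8-N1869D the ratio was 131 (99.1 to 177) in sample 1 and 104 (81.2 to 134) in sample 2, and elsewhere it was 170 with prp8-V1870N, 180 with prp8-V1860D and 172 with prp8-V1860N. The interval of sample 2 lay below that of PRP8-WT, while that of sample 1 overlapped it. Set against PRP8-WT, UBC5 was 2.63-fold (1.76 to 3.93) and 3.19-fold (2.20 to 4.62) in the prp8-N1869D samples, from 49 and 66 reads. These were the highest folds of the genes that passed the read filter given below. Its intervals held the fold of UBC9 in both samples, that of UBC13 in sample 1 and that of PRE3 in sample 2, so this rank is not resolved. In the same samples UBC4 was 1.71-fold (1.66 to 1.77) and 1.64-fold (1.59 to 1.69). In prp8-V1860D neither differed from PRP8-WT beyond counting error, with UBC4 at 1.01-fold (0.978 to 1.04) and UBC5 at 1.13-fold (0.732 to 1.73). The introns nearest to UBC4 in their log2 ratios were LSM2, IMD4 and CGI121, with root mean square differences of 0.07, 0.08 and 0.09.

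UBC8, the E2 enzyme known for the breakdown of the gluconeogenic enzyme fructose bisphosphatase, has the CACTAAC box. Its intron stood at 146 RPM with PRP8-WT (443 reads), at 247 and 244 with prp8-N1869D (samples 1 and 2), at 188 with prp8-V1870N, at 158 with prp8-V1860D and at 191 with prp8-V1860N. The 2 biological samples of prp8-N1869D were alike, at 0.99-fold for sample 2 over sample 1 (0.830 to 1.18), and both lay at about the same fold over PRP8-WT, 1.69 (1.44 to 1.99) and 1.68 (1.44 to 1.96). In prp8-V1860N it was 1.31-fold (1.14 to 1.51) and in prp8-V1870N 1.29-fold (1.11 to 1.5), both with an interval above 1.

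UBC13 and MMS2 encode the partners of one enzyme, in which the E2 Ubc13 binds the inactive E2-like Mms2 to build the ubiquitin chains used in DNA damage tolerance. UBC13 stood at 141 RPM with PRP8-WT (428 reads), at 335 and 289 with prp8-N1869D (samples 1 and 2), at 165 with prp8-V1870N, at 115 with prp8-V1860D and at 181 with prp8-V1860N. The alleles at the same residue lay on opposite sides of PRP8-WT, at 1.29-fold (1.11 to 1.49) in prp8-V1860N and 0.818-fold (0.691 to 0.967) in prp8-V1860D, and prp8-N1869D lay highest, at 2.38-fold (2.06 to 2.76) and 2.05-fold (1.77 to 2.38) in its samples. MMS2 was almost unread. No annotated read was counted in 6 of the 7 libraries and 1 was counted in technical library 2 of prp8-N1869D sample 2, against a limit that a count of 0 allows (3 reads) of 0.986 RPM in PRP8-WT and 3.02 in prp8-N1869D sample 1. The lariats of the 2 partner genes therefore could not be compared between strains.

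UBC9 is the E2 enzyme of SUMO, and its intron is one of the few that begin with GTAAGT. It stood at 2501 RPM with PRP8-WT (7609 reads), at 5384 and 6957 with prp8-N1869D (samples 1 and 2), at 3855 with prp8-V1870N, at 2375 with prp8-V1860D and at 2864 with prp8-V1860N. As for UBC5, prp8-N1869D was highest, and the intervals of all 6 samples were apart except for PRP8-WT and prp8-V1860D, which met at their edges. Over PRP8-WT it was 2.15-fold (2.08 to 2.23) and 2.78-fold (2.69 to 2.87) in prp8-N1869D and 1.54-fold (1.49 to 1.59) in prp8-V1870N, and the biological samples of prp8-N1869D differed by 1.29-fold (1.25 to 1.34). Technical library 1 over library 2 was 0.802-fold (0.766 to 0.839), so the repeat of the library alone moved UBC9 by more than counting error.

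UBC12 is the E2 enzyme of Rub1, and RUB1 encodes that modifier, which is attached to the cullin scaffolds of ubiquitin ligases. UBC12 stood at 167 RPM with PRP8-WT (508 reads), at 291 and 259 with prp8-N1869D (samples 1 and 2), at 208 with prp8-V1870N, at 147 with prp8-V1860D and at 203 with prp8-V1860N. RUB1 stood at 9.53 RPM with PRP8-WT (29 reads), at 14.1 and 20.8 with prp8-N1869D (samples 1 and 2), at 13.5 with prp8-V1870N, at 11.9 with prp8-V1860D and at 12.3 with prp8-V1860N. UBC12 was 1.74-fold (1.5 to 2.02) and 1.55-fold (1.34 to 1.79) in prp8-N1869D, while the intervals of RUB1 in all 6 samples overlapped. The RUB1 value of prp8-N1869D sample 2 joins 5 reads in technical library 1 and 18 in library 2, a ratio of 0.25 between libraries (0.0726 to 0.699), so its 2.18-fold over PRP8-WT (1.21 to 3.91) rests largely on the second. Reads on the opposite strand with the ends of the RUB1 intron swapped, which are not in these counts, numbered 2 to 16 per sample beside 14 to 29 annotated reads, and how strand was assigned is not given in the sources used here.

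Set side by side, PRE3 was first in every sample, UBC4 and UBC9 came next, then UBC12, UBC8 and UBC13 in varying order, and then UBC5, RUB1 and MMS2. In PRP8-WT the counting intervals of UBC12, UBC8 and UBC13 overlapped, and in prp8-N1869D sample 2 UBC9 stood above UBC4. PRE3 gave 1868 reads for each RUB1 read in PRP8-WT (1301 to 2789).

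A gene was counted as 2-fold changed when its share of annotated reads lay at least 2-fold from that of PRP8-WT, provided that the intron had 50 reads or more over both samples, and log2 ratios used a pseudocount of 0.5 reads. In prp8-V1860N, 8 genes passed the read filter and 0 were 2-fold higher or lower, where 0.391% of 256 introns tested were higher and 0.0% lower. In prp8-V1860D, 0 of 8 were past 2-fold, where 0.781% of 256 introns were higher and 0.0% lower. For prp8-N1869D sample 1, 3 of 7 were higher (UBC5, UBC13 and UBC9) and 0 lower, where 26.1% of 257 introns were higher and 6.61% lower. In sample 2, 5 of 8 were higher (PRE3, UBC5, UBC13, UBC9 and RUB1) and 0 lower, where 31.4% of 258 introns were higher and 10.5% lower. In prp8-V1870N, 0 of 8 were past 2-fold, where 10.0% of 259 introns were higher and 0.772% lower. These shares over all introns include those of ribosomal protein genes. Among the other introns outside ribosomal protein genes whose branch point lies within 112 nt of the 5' splice site, the longest distance among the 9 genes, 60 of 112 were 2-fold higher in sample 1, 72 of 112 in sample 2 and 24 of 113 in prp8-V1870N. By share of annotated reads UBC5, UBC13 and UBC9 were past 2-fold in both prp8-N1869D samples, but most of these calls depend on the scaling. Over 4 other scalings, UBC5 was past 2-fold in both samples under all 4 and UBC9 in sample 2 under all 4. UBC13 was past it in sample 1 under 2 of 4 and in sample 2 under 0 of 4, with log2 ratios of 0.57 to 0.94. UBC9 in sample 1, and PRE3 and RUB1 in sample 2, were each past it under 1 of 4. With reads at the exact annotated branch point alone, the log2 ratio of UBC5 in sample 1 was 0.99, under 2-fold and below UBC13 and UBC9, and that of UBC13 in sample 2 was 0.99, while UBC5 in sample 2 stood at 1.44. The log2 ratios of UBC4 in prp8-V1860D and prp8-V1870N, of UBC13 in prp8-V1870N and of UBC9 in prp8-V1860D changed sign between these scalings, so no direction is given for them.

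The median log2 ratio of the genes that passed the filter was 0.80 and 1.08 in prp8-N1869D samples 1 and 2, 0.42 with prp8-V1870N, 0.07 with prp8-V1860D and 0.32 with prp8-V1860N. The prp8-V1860D median changed sign, to -0.01 when scaled to reads outside ribosomal protein genes and to -0.03 with exact branch point reads alone, so no direction is given for it. Over all introns tested the medians were 0.27, 0.21, 0.13, 0.01 and 0.07 in the same order. Introns of ribosomal protein genes, which supply most reads, lay at -0.35, -0.35, -0.17, -0.08 and -0.02, and introns outside them at 0.85, 0.99, 0.46, 0.09 and 0.18. In each mutant sample the genes' median thus lay nearer to that of introns outside ribosomal protein genes than to that of ribosomal protein genes. The other introns outside ribosomal protein genes with a branch point within 112 nt had medians of 1.05, 1.29, 0.64, 0.25 and 0.27 over the 110 to 113 that passed the filter. Those with a longer distance had medians of -0.27, -0.20, -0.25, -0.33 and -0.10 over 35 introns. The genes' median lay below that of the other introns within 112 nt in every mutant sample but prp8-V1860N. The genes were spread in prp8-V1860D, where PRE3 stood at 0.69 while UBC4, UBC9, UBC12 and UBC13 stood at 0.01, -0.07, -0.18 and -0.29. The fold intervals of 5 of the other 7 genes lay wholly below that of PRE3, and 0 above it, in prp8-V1860D and also in prp8-V1870N. In prp8-N1869D, 0 of 6 lay below and 3 above in sample 1, and 3 of 7 below and 1 above in sample 2. In prp8-V1860N, 0 of 7 lay below and 3 above.

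**Figure D2:**
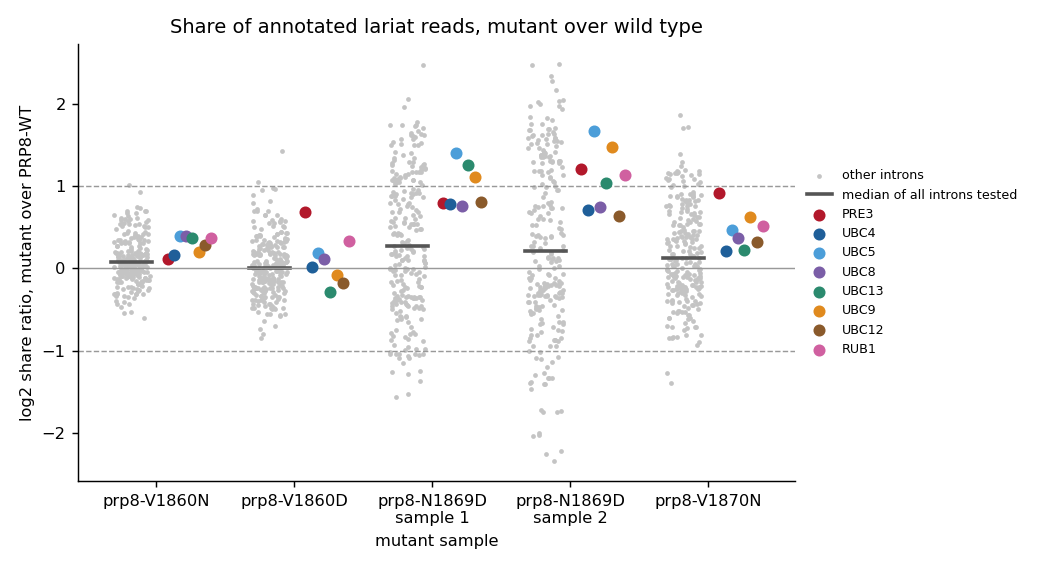
Log2 ratio of the share of annotated reads, mutant over PRP8-WT, for each intron tested (grey), their median (bar) and the genes that passed the read filter (colour); dashed lines mark 2-fold. In prp8-V1860D PRE3 stands apart at 0.69 with the other genes between -0.29 and 0.33, and in prp8-N1869D sample 1 all 7 genes lie between 0.76 and 1.40.

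UBC13 has the longest distance from 5' splice site to branch point of the 9. Among the 14 other introns outside ribosomal protein genes with a distance of 100 to 150 nt, a range chosen after the plot had been seen, log2 ratios ran from -0.27 to 0.91 in prp8-N1869D sample 1 and from -0.68 to 0.79 in sample 2. UBC13, at 1.25 and 1.04, lay above all 14 in both samples. In prp8-V1860N it also lay above them, at 0.36 against a highest value of 0.19, whereas in prp8-V1860D it was at -0.29 within their range of -0.46 to 0.34 and in prp8-V1870N at 0.23 within -0.51 to 0.35. At 112 nt, UBC13 lies near the short end of the chosen range. The other introns outside ribosomal protein genes within 112 nt had medians of 1.05 and 1.29 in prp8-N1869D samples 1 and 2. UBC13 lay above that median in sample 1 and below it in sample 2.

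**Figure D3:**
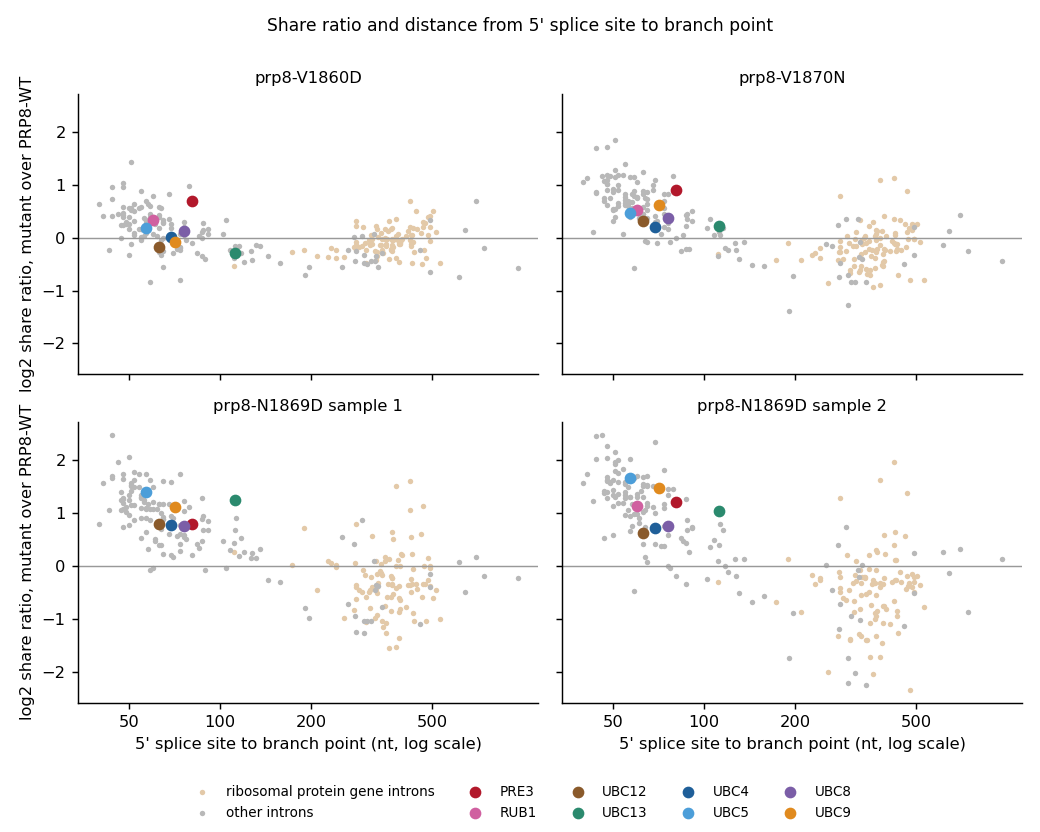
Log2 ratio of the share of annotated reads, mutant over PRP8-WT, against the distance from 5' splice site to branch point (log axis) for introns that passed the read filter in 4 mutant samples. The genes described lie between 57 and 112 nt, among short introns, and UBC13 at 112 nt reaches 1.25 in prp8-N1869D sample 1.

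Some other introns of the pathway were read as well. They come from a list of genes fixed by hand, which may not be complete. DCN1, which promotes attachment of Rub1 to cullins, had log2 ratios of 1.02 and 1.59 in prp8-N1869D samples 1 and 2, 0.75 with prp8-V1870N, 0.26 with prp8-V1860D and 0.33 with prp8-V1860N. The first intron of SUS1, a subunit of the SAGA deubiquitinating module, had 1.53, 1.94, 1.16, 0.57 and 0.45 in the same order, and its second intron had 1.08, 1.40, 1.18, 0.58 and 0.59. RPL40A and RPL40B, which encode ubiquitin fused to a ribosomal protein, had lower ratios than these, with 0.21, -0.81, 0.03, -0.03 and 0.04 for RPL40A, for which the prp8-N1869D samples differed most, and -0.46, -0.61, -0.39, -0.17 and -0.09 for RPL40B. AMA1, a meiotic activator of the anaphase-promoting complex, had 1 read in PRP8-WT and at most 6 elsewhere and did not pass the filter. Of these 6 introns 5 passed, and 3 of the 5, those of DCN1 and SUS1, were past 2-fold higher in each prp8-N1869D sample, where 26.1% and 31.4% of all introns tested were. In prp8-V1870N both SUS1 introns were, or 2 of 5, where 10.0% of all were. None of the 5 was past 2-fold in prp8-V1860D or prp8-V1860N, or past 2-fold lower in any mutant sample.

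The annotated count of an intron includes junctions placed within 2 nt of the annotated branch adenosine, and how these positions were used differed more between genes than between samples in the genes with over 200 reads in every sample. In PRE3, 78.1% of reads in PRP8-WT lay 1 nt before the annotated position and 20.7% on it, and over all samples the first share ran from 76.5% to 78.1%. UBC4 was divided, with 53.3% at 1 nt before and 38.7% on the position in PRP8-WT. UBC9 had 72.1% on the position in PRP8-WT, and 72.1% to 73.7% over the samples. UBC12 was nearly even, with 49.8% on it and 40.2% at 1 nt before. UBC5 had 94.7% on the position in PRP8-WT (57 reads) and 71.4% in prp8-N1869D sample 1 (49 reads), the widest range on that position of the 8 genes drawn, from few reads. The box is TACTAAC in each of these 5 introns, so the same 7 letters went with different placements.

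**Figure D4:**
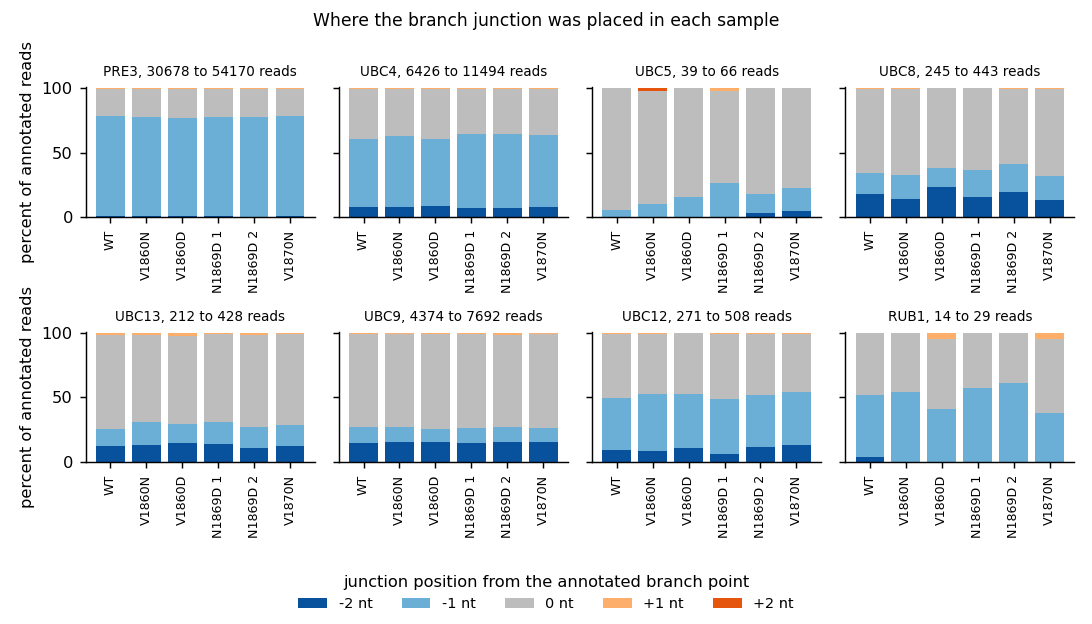
Percent of each gene's annotated reads by position of the branch junction relative to the annotated branch point (-2 to +2 nt) in 6 samples. PRE3 lies at 76.5% to 78.1% at 1 nt before the annotated position in every sample, while UBC9 lies at 72.1% to 73.7% on it.

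Beyond the annotated reads, 166 pairs shared an end with one of the 9 introns. They held 4349 reads over the 7 libraries beside 362203 annotated reads, 71 of the pairs were seen once, and 56 pairs had at least 5 reads. Most of these reads lay a few nt from the annotated sites: 5' splice sites shifted by 1 to 5 nt held 1584 reads in UBC4 and 1066 in PRE3. In PRE3, 813 of these had both ends shifted by 2 nt in the same direction, and in UBC4 531 had both shifted by 1 nt.

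Aberrant 5' splice sites, which per the file headers lie over 5 and under 1000 nt away from the annotated site and are joined to the annotated branch point, had few reads in these genes. Their reads made up 0.0107% of aberrant plus annotated reads with PRP8-WT (8 reads, 0.00462% to 0.0211%). In prp8-N1869D samples 1 and 2 they made up 0.0115% and 0.00492% (5 and 3 reads). They made up 0.0107% with prp8-V1870N (7 reads), 0.0154% with prp8-V1860D (10 reads) and 0.0247% with prp8-V1860N (13 reads, 0.0132% to 0.0423%). The intervals of all 5 mutant samples overlapped that of PRP8-WT, so no difference from PRP8-WT was detectable at this depth. The mutant samples were not compared with one another. The same share was 0.419% over all introns in PRP8-WT (0.412% to 0.426%) and 0.167% over the 132 other short introns outside ribosomal protein genes (0.156% to 0.179%), both above the interval of the 9 genes. These intervals pool the reads of a set and hold no spread between introns. They do not show that the 9 introns differ from short introns in general. With PRE3 left out the share of the genes was 0.0292% in PRP8-WT (0.0107% to 0.0635%), still below both. Over the 6 other pathway introns listed above it was 2.31% in PRP8-WT (2.12% to 2.50%), above both. Only 2 of the 6 had an aberrant read there, so this is not a value of the set as a whole. Counted by intron, 5 of the 9 had an aberrant read in PRP8-WT, beside 60 of the 132 short introns and 183 of all 280. Whether an intron has an aberrant read depends on its depth, which was not matched between these sets. The counts of introns therefore do not show whether the low share holds intron by intron. The authors' lists of collective aberrant counts hold 4 or 5 of the 9 genes in each of 5 strains, prp8-N1869D by its sample 1. Each listed count equalled the recomputed one, and the genes not listed had 0 recomputed reads.

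Among single sites, UBC4 had 8 reads from a GTACAT 77 nt before its annotated 5' splice site, with 3 in prp8-V1860D, 2 each in PRP8-WT and prp8-V1860N, and 1 in prp8-V1870N. UBC9 had 6 reads from a GTTTGT 31 nt before its site, 5 of them in prp8-V1860N. In MMS2, a GTATAT 49 nt before the annotated site gave 3 reads, 1 each in prp8-N1869D sample 2, prp8-V1860D and prp8-V1860N, against the single annotated read of that gene. RUB1 had 8 reads from a GTATAT over 1000 nt away, outside the aberrant range, with 4 in prp8-V1860D and 0 in PRP8-WT, where 29 annotated reads were counted. None of these counts is large enough to compare strains.

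Some PRE3 reads joined the annotated 5' splice site to positions inside the second exon. These lie 127 to 129 nt after the annotated branch point, and the window around them is shown because the wild type and the mutants differed there beyond counting error. They were thus picked for this difference among 166 pairs. The intervals do not allow for that choice and are no test of the difference. Capitals mark the adenosines at 128 and 129 nt, which held most of these reads.

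PRE3 exon 2 (chrX:435423-435452, + strand): gtgacagataaattAAcgagagtacatgac

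In PRP8-WT 69 reads lay there, or 0.127% of these plus annotated reads (0.0990% to 0.161%). The share was 0.0250% with prp8-V1870N (13 reads, 0.0133% to 0.0428%), 0.0152% with prp8-V1860D (8 reads, 0.00654% to 0.0299%) and 0.0506% with prp8-V1860N (19 reads, 0.0305% to 0.0791%). In prp8-N1869D it was 0.0196% in sample 1 (6 reads, 0.00718% to 0.0426%) and 0.00220% in sample 2 (1 read). The wild type was the highest of the 6 samples and its interval overlapped none of the 5 mutant intervals. The 7 bases around the position at 129 nt are AATTAAC. A second position 109 nt after the annotated branch point, in AGCTAAC, together with one at 107 nt held 7 reads in PRP8-WT, 3 in prp8-V1860N and 0 to 1 in each other mutant sample.

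In UBC9, junctions 9 and 10 nt before the annotated branch point, almost all at the guanosine at 9 nt, made up 1.08% of reads with PRP8-WT (83 reads, 0.860% to 1.34%). In prp8-N1869D samples 1 and 2 they made up 1.94% (1.59% to 2.35%) and 2.15% (1.84% to 2.5%). They made up 1.76% with prp8-V1870N (1.44% to 2.12%), 1.62% with prp8-V1860D (1.27% to 2.04%) and 1.48% with prp8-V1860N (1.18% to 1.83%). The wild type was lowest, with an interval below those of both prp8-N1869D samples and prp8-V1870N and overlapping those of prp8-V1860N and prp8-V1860D. The technical libraries of sample 2 gave 2.71% and 1.64%, with intervals of 2.22% to 3.29% and 1.28% to 2.08% that did not overlap, and the interval of technical library 2 alone overlapped that of PRP8-WT. The 3 bases after this guanosine are the same as the first 3 of the intron, and their part in the result was not tested.

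UBC8 had junctions at an adenosine 26 nt before its annotated branch point. There was 1 such read with PRP8-WT (0.225%, 0.00570% to 1.25%), against 11 with prp8-V1860N (2.86%, 1.44% to 5.07%) and 8 in prp8-N1869D sample 1 (3.16%, 1.37% to 6.14%). There were 2 reads in each of prp8-V1870N, prp8-N1869D sample 2 and prp8-V1860D, or 0.683%, 0.735% and 0.683%. The prp8-V1860N and prp8-N1869D sample 1 intervals lay above that of PRP8-WT, but sample 2 of prp8-N1869D overlapped it, so the second biological sample did not show the gap. The 5 bases after this adenosine are the first 5 of the intron, and their part in the result was not tested.

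**Figure D5:**
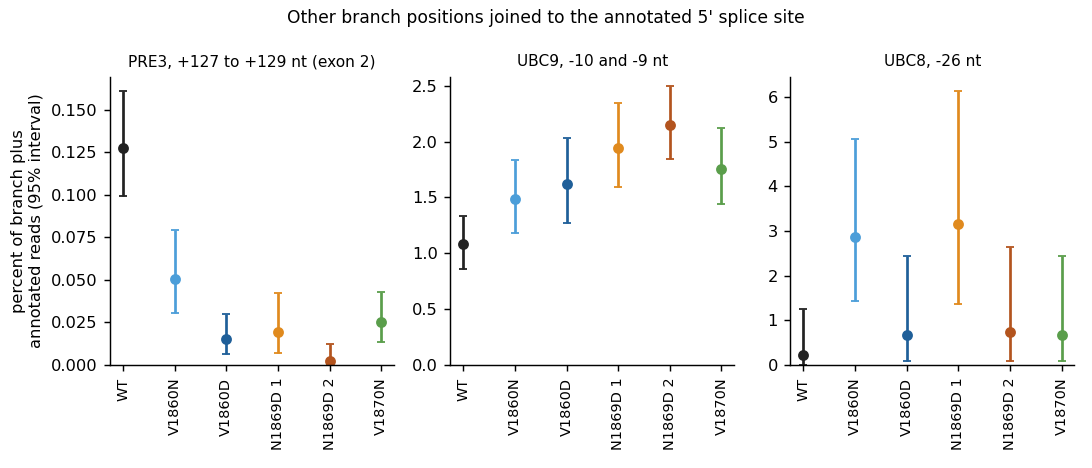
Percent of reads at other branch positions joined to the annotated 5' splice site, of these plus annotated reads, in 6 samples with exact binomial 95% intervals. The positions were picked for their values, and the intervals do not allow for that choice. In PRE3 the wild type, at 0.127%, lies above all 5 mutant samples; in UBC9, at 1.08%, it lies below them.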

How the data were processed

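RNA was depleted of ribosomal RNA and digested with RNase R, per the labels' protocols. Trimmomatic, Bowtie2 and build R64 are named, per the submitters' processing notes; tool versions and the way strand was assigned were not given in the sources used here. Deposited by the authors were counts of filtered junction reads by pair of sites and by intron, in which, per the file headers, annotated means a branch point within 2 nt. Another 65 per-sample columns were not used. Positions count from 1, and symbols matched 278 of 280 intron names. Shares used each sample's annotated total, with exact Poisson, Clopper-Pearson or conditional binomial intervals. The genes, lists and comparisons were chosen with earlier results of these data known. Genes named are the 9, 5 other genes of the pathway, and the 3 introns nearest in log2 ratio to each of the 2 genes with most reads; single pairs were picked for their values. Python 3.11.15 was used with scipy 1.17.1, pandas 2.3.3, numpy 2.4.6, biopython 1.88 and matplotlib 3.10.9. Alternative size factors came from edgeR 4.0.16 and DESeq2 1.42.0 in R 4.3.3. Calculations were tested on simulated data. Alternatives covered scaling, pseudocount, filter, branch tolerance, aberrant range and leaving out libraries or genes.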

Additional observations from a re-analysis of the deposited data

Results flagged for a closer look

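Mirror images, pairs on the opposite strand with the ends of an annotated intron swapped within 10 nt, were outside the comparisons above. They made up 6.0% of mirror plus annotated reads of PRE3 in prp8-V1860D (5.80% to 6.19%), above 5.50% in PRP8-WT (5.31% to 5.69%). In prp8-N1869D sample 2 they made up 4.81% (4.62% to 5.00%), with an interval wholly below that of PRP8-WT. In UBC4 they made up 2.28% in prp8-V1860D (1.95% to 2.66%), above 1.60% in PRP8-WT (1.38% to 1.85%). In RUB1 they made up 21.6% in PRP8-WT (8 beside 29 annotated reads, 9.83% to 38.2%) and 8.33% to 43.2% in the mutant samples, with 16 beside 21 in prp8-V1870N, and all 5 mutant intervals overlapped that of PRP8-WT. The PRE3 and UBC4 results in prp8-V1860D came up because a signal outside the main measurement lay above the control with intervals apart. Values below the control were not flagged by this rule.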

How the results depend on the processing

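Shares are relative. Scaling to reads outside ribosomal protein genes, TMM and median-of-ratios each shifted the median of all introns by over 0.1 on the log2 scale in prp8-N1869D and prp8-V1870N. Scaling to all lariat reads shifted it by less than 0.1 in prp8-N1869D, from 0.27 to 0.18 in sample 1 and from 0.21 to 0.11 in sample 2. Scaled to reads outside ribosomal protein genes, the median log2 ratio of the 9 genes was 0.48 and 0.62 in prp8-N1869D samples 1 and 2 and 0.19 in prp8-V1870N, with TMM 0.55 and 0.85 in the samples, and with median-of-ratios 0.51 and 0.81. Genes past 2-fold were 1 in sample 1 outside ribosomal protein genes and with median-of-ratios, and 2 in sample 2 under all 3 scalings. With exact branch point reads alone the prp8-V1870N median was 0.18. The gap between the genes' median and that of all introns cannot change with scaling. Counting 5' splice sites at any distance, the aberrant share was 0.866% with PRP8-WT, 0.732% and 0.569% in prp8-N1869D samples 1 and 2, 0.659% with prp8-V1870N, 0.803% with prp8-V1860D and 0.868% with prp8-V1860N, since it then takes in sites shifted by 1 to 5 nt. Without PRE3, chosen after seeing the data, it was 0.0292%, 0.0315%, 0.0194%, 0.0438%, 0.0654% and 0.0863% in the same order, since most annotated reads were PRE3's. Without each technical library, sample 2 gave a median of 1.02 to 1.06, 4 genes past 2-fold and an aberrant share of 0.00327% to 0.00659%. Of 244 values of single genes, 57 moved by more than 0.20, the SD of the 2 prp8-N1869D medians, and 0 of those past 2-fold reversed. No paired analysis was possible because no 2 strains share 2 replicate numbers. Depth limits UBC5, RUB1 and MMS2.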
